A study of Mus musculus with 96 samples.

Results

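Aqp3 and U90926 are 2 of the 15895 genes listed in a table of RNA sequencing values from serum-stimulated mouse embryonic fibroblasts, and they were taken from it by their gene symbols. They were chosen by their rise over starved cells, so the sizes of that rise are given here as a description and without a test. In the ranking behind the choice, the largest mean log2 rise at a shared hour, Serpinb2 led with 9.44, followed by Aqp3 with 8.15 at 3 h and U90926 with 7.79 at 14 h. The last gene inside the 5 highest was Areg with 7.56, and the first outside was Cyp1a1 with 7.36. Aqp3 rose and fell within hours. U90926 did not behave as a transient: it stayed high to the last library of both time courses.

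The cells were primary fibroblasts of CF-1 mice taken at embryonic day 13 and starved for 36 h in 0.5% fetal calf serum, after which serum was raised to 20% at 0 h. The study sampled them in 2 time courses, called Cycle 1 and Cycle 2. Cycle 1 has 63 matched libraries, the last at 38 h, and Cycle 2 has 32, the last at 27 h. Both begin with a library taken 1 h ahead of the serum. Each hour was sampled once in a Cycle, and the starved cells are the -1 h and 0 h libraries. The Cycles share 29 hours after serum. Nothing in the labels says that libraries came from separate cultures, and successive hours of a Cycle are not independent replicates, so p-values measure the scatter between these libraries only. With 1 run of each Cycle, a difference between the Cycles cannot be told apart from any other difference between the runs.

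Aqp3 encodes an aquaglyceroporin, a membrane channel that passes water, glycerol and hydrogen peroxide, and is best known from the basal layer of the epidermis and the kidney collecting duct. U90926 is a gene of short spliced transcripts, classed as a long noncoding RNA by RefSeq and as protein-coding by GENCODE M1. It has been described in activated macrophages and in differentiating fat cell precursors. On the NCBIM37 assembly Aqp3 lies at chr4:41039755-41045216 and U90926 at chr5:92638922-92644434, both on the minus strand. The longest GENCODE transcript of each has 6 exons, of 1765 bases in all for Aqp3 and 520 bases for U90926. No other annotated gene overlaps either of them, which matters because the authors counted reads of both strands together.

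The 250 bases before the annotated start of each gene are shown because these are the stretches in front of the pair of rises described below. Capitals mark matches to the motifs searched, and both run 5′ to 3′ on the minus strand. The Aqp3 window is chr4:41045217-41045466 and the U90926 window is chr5:92644435-92644684, both read from NCBIM37.
Aqp3: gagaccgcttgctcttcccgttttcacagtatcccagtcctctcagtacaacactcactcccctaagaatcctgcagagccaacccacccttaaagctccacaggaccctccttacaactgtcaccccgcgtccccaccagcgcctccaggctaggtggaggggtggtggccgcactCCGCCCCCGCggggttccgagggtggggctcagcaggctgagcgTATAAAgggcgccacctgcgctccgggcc
U90926: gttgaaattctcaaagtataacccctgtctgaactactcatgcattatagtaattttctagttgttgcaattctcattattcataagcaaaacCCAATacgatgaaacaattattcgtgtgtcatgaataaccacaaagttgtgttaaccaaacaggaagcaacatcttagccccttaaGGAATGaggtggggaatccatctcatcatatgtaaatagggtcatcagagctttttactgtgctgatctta

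The windows differ in composition. That of Aqp3 is 64% G and C with 14 CpG, and that of U90926 is 36% G and C with 2 CpG, against a median of 58.4% over the 14862 table genes found in the annotation. The Aqp3 window holds a TATAAA that begins 29 bases before the start, a motif present in 7.59% of all windows on either strand. It also holds the letters of the Egr site GCGGGGGCG on the opposite strand, from 72 bases before the start, which 4.54% of windows hold, and this match overlaps a GC box (GGGCGG, 51.9% of windows). The U90926 window holds a CCAAT (34.9% of windows) and a GGAATG, the core bound by TEAD factors (11% of windows). Neither window holds the AP-1 letters TGACTCA (3.3%), the cyclic AMP response element TGACGTCA (2.35%), its shorter form TGACG (24.1%), the E-box CACGTG (7.92%), the C/EBP site TTGCGCAA (0.215%), the CArG box of serum response factor (1.18%) or the NF-kB consensus (9.09%). A match is a description of letters and not a bound site.

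The values are reads on exons scaled by the authors to 10000000 per library, here called the signal. The depth recovered from the table was 5067431 to 14500276 reads per library, so a signal of 1 is about 1 read. All 190 values of the 2 genes were whole reads within 0.1 of a read. The fibroblast label fitted the markers, since all 12 genes of a fibroblast list (collagens, decorin, lumican, vimentin and others) had a mean signal of at least 10 in every stretch examined, with a summed signal of 197904 to 614419 per library. Genes of other cell types were low but not absent, and no gene of these lists was at 0 throughout Cycle 1. In starved cells 10 epithelial markers summed to 455 and 484 in Cycle 1 and to 213 and 221 in Cycle 2, and 9 macrophage markers summed to 1220 and 1287 in Cycle 1 and to 3669 and 3675 in Cycle 2. In bulk RNA, a change in the number of cells of a type and a change in RNA per cell cannot be told apart.

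Some libraries stood apart. Both 0 h libraries already carried the early serum genes: Fos, a subunit of AP-1, had a signal of 914 at -1 h and 24883 at 0 h in Cycle 1, and 466 and 15149 in Cycle 2. The early growth response factor Egr1 rose likewise, 8.33-fold in Cycle 1 and 10.4-fold in Cycle 2 from -1 h to 0 h, so the starved reference is also given with each library alone. The 0.5 h library of Cycle 2 had a summed macrophage signal of 811, against 2263 to 5121 in the other libraries of Cycle 2 and 526 to 1939 in Cycle 1. It enters none of the fits, since Cycle 1 has no library at that hour.

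Aqp3 was almost silent in starved cells and rose steeply within 3 h of serum. In Cycle 1 its signal was 0 at -1 h and 8.21 at 0 h, which are 0 and 9 reads, and the 0 allows a signal of up to 4.51 (3 reads). It was 55.8 at 1 h, 534 at 1.5 h, 1329 at 2 h, then 1746 at 2.5 h. Its highest library was that of 3 h with 2214 (95% counting interval 2137 to 2294). In Cycle 2 the starved libraries had 0.954 and 2.47, which are 1 and 3 reads. The signal was then 4.62 at 0.5 h, 5.11 at 1 h, 36.6 at 1.5 h, 140 at 2 h, 182 at 2.5 h, then 286 at 3 h. The highest library was that of 4 h with 316 (271 to 368). Every library from 1.5 h to 9 h lay above all starved libraries of its Cycle, and the 2 Cycles had the same order of events at different heights.

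**Figure D1:**
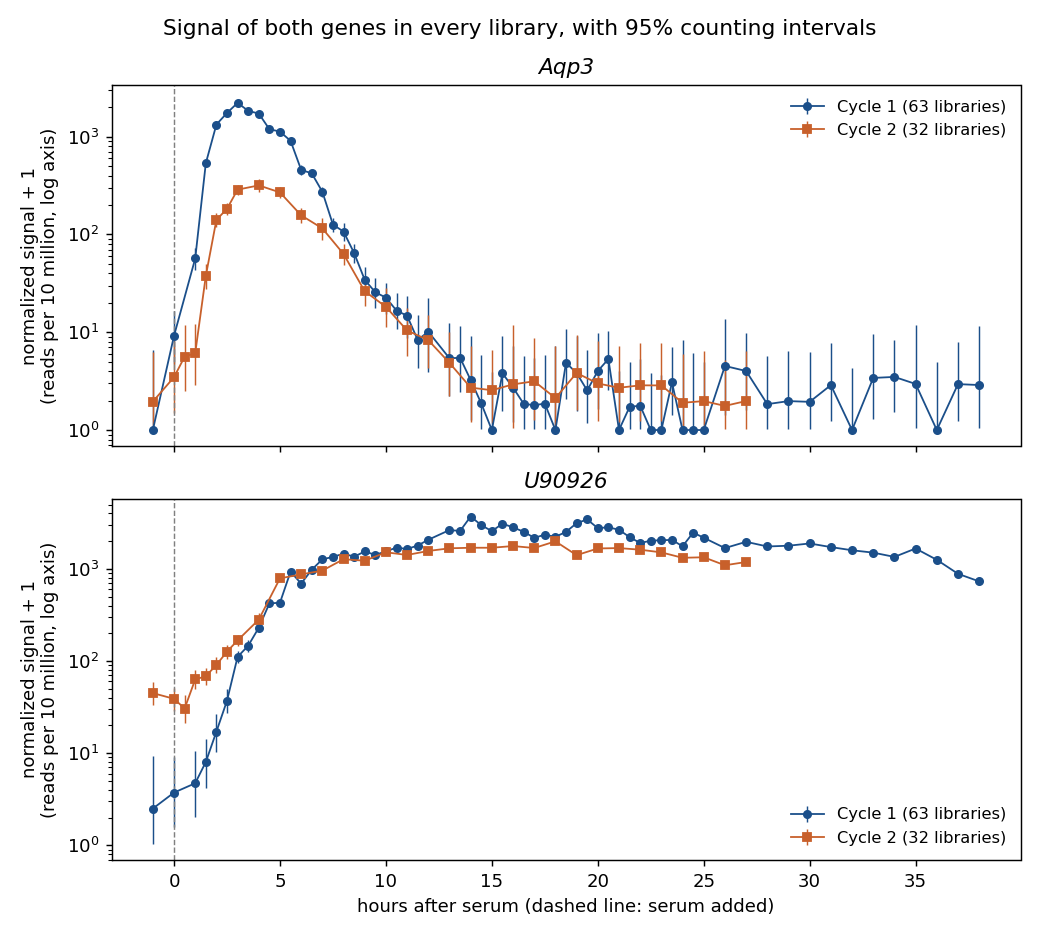
Normalized signal + 1 (log axis) of Aqp3 and U90926 against hours after serum in each of the 63 libraries of Cycle 1 (circles) and 32 of Cycle 2 (squares), with 95% Poisson counting intervals as bars. Aqp3 rises to 2214 in Cycle 1 and 316 in Cycle 2 and is back near the floor by 14 h, whereas U90926 climbs from a starved mean of 2.12 in Cycle 1 and 40.9 in Cycle 2 to 3705 and 1992 and stays high.

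With onset taken as the first library above 2-fold of the starved mean that is followed by another, Aqp3 began to rise by 1 h in Cycle 1, the first library after serum there. In Cycle 2 the onset fell at 0.5 h, where it rests on 5 reads, and it moved to 1.5 h with 4-fold in place of 2-fold. It also moved to 1.5 h with the -1 h library alone as the reference, after its 1 read was raised to a floor of 3 reads. That floor, a signal of 2.86, lies above the starved mean of 1.71, so this move comes from the floor. The highest library stood 540-fold above the starved mean in Cycle 1 and 185-fold above it in Cycle 2. These folds depend on the starved library used: in Cycle 1 the fold was 270 over the 0 h library alone and at least 491 over the -1 h library alone, whose 0 reads were set to the floor of 3. In Cycle 2 it was 128 over the 0 h library alone and at least 111 over the -1 h library alone, whose 1 read was raised to the same floor. From the pooled reads these ratios were 434 (95% exact binomial interval 228 to 949) and 179 (68.6 to 664), intervals that cover counting error only. They overlap widely, because the 4 starved libraries hold 13 reads of Aqp3 together, and a fold over starved cells therefore says little about whether the Cycles differed.

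The fall of Aqp3 was as complete as its rise. In Cycle 1 the signal was 1721 at 4 h, 1125 at 5 h, 457 at 6 h, 272 at 7 h, 106 at 8 h, 33.3 at 9 h, then 13.8 at 11 h. In Cycle 2 it was 268 at 5 h, 156 at 6 h, 114 at 7 h, 62.1 at 8 h, 25.3 at 9 h, then 9.43 at 11 h. The time spent above 50% of the highest value was 3.18 h in Cycle 1, from 1.86 h to 5.04 h, and 3.76 h in Cycle 2, from 2.22 h to 5.98 h. Between 5 h and 10 h, hours picked after the values were seen, log2 signal fell by 1.23 per hour in Cycle 1 (SE 0.0456 over 11 libraries) and by 0.82 in Cycle 2 (SE 0.0559 over 6 libraries). These slopes correspond to a halving of the signal every 0.815 h and every 1.23 h, as a description of the curves. The unbroken run of libraries above 2-fold of the starved mean ended at 11 h in Cycle 1 and at 13 h in Cycle 2. In Cycle 1 the 12 h library, with 9.13 on 5 reads, lay above that line again.

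After 14 h Aqp3 was at the limit of detection. Over the 36 libraries of Cycle 1 from 14 h to 38 h the signal ranged from 0 to 4.32 with a median of 0.959, and 10 of them were at 0. Over the 14 libraries of Cycle 2 from 14 h to 27 h it ranged from 0.765 to 2.83 with a median of 1.71. No library held more than 6 reads. A 0 allows up to 3 reads, so differences among these libraries were not detectable at this depth.

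U90926 rose later, more slowly and for far longer. In Cycle 1 its starved libraries had 1.50 and 2.74, which are 1 and 3 reads, and those of Cycle 2 had 43.9 and 37.9, each of 46 reads. After serum the signal in Cycle 1 was 3.72 at 1 h, 7.02 at 1.5 h, 16.1 at 2 h, 110 at 3 h, 229 at 4 h, 429 at 5 h, then 692 at 6 h. In Cycle 2 it was 62.2 at 1 h, 67.4 at 1.5 h, 89.9 at 2 h, 167 at 3 h, 281 at 4 h, 789 at 5 h, then 872 at 6 h. The courses started far apart and drew close by 3 h to 4 h. By the 2-fold rule the onset was at 1.5 h in Cycle 1 and at 2 h in Cycle 2, but with an 8-fold rule it was at 2.5 h and 5 h. From 1 h to 5 h log2 signal rose by 1.83 per hour in Cycle 1 (SE 0.134 over 9 libraries) and by 0.91 in Cycle 2 (SE 0.0684 over 7 libraries), again over hours picked after the values were seen. These slopes depend on the starting level: the signal went from 3.72 to 429 in Cycle 1 and from 62.2 to 789 in Cycle 2. The lower slope of Cycle 2 is therefore not a smaller gain in signal.

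The highest library of U90926 came at 14 h in Cycle 1, with 3705 (95% counting interval 3580 to 3834), and at 18 h in Cycle 2, with 1992 (1900 to 2087). In Cycle 1 the level did not decline evenly from there. It was 2176 at 17 h and 2231 at 18 h, then 3135 at 19 h and 3444 at 19.5 h, then 1760 at 24 h, then 2477 at 24.5 h. The dip and the second high stretch each span several libraries, whereas the 24.5 h value is 1 library. With a running median over 3 libraries the highest value of Cycle 1 moved from 14 h to 19 h and that of Cycle 2 from 18 h to 17 h, so the peak hour is not sharp. Between 13 h and 21 h the signal was 2176 to 3705 over 17 libraries of Cycle 1 (median 2658) and 1409 to 1992 over 9 of Cycle 2 (median 1686).

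U90926 had not returned to its starved level when sampling ended. The last library of Cycle 1, at 38 h, had 731, which is 19.7% of the highest value and 345-fold above the starved mean. The last of Cycle 2, at 27 h, had 1188, which is 59.7% of the highest value and 29.1-fold above the starved mean. In Cycle 1 the signal first went back under 50% of the highest value at 23.8 h, 12.2 h after it had passed that line, and it crossed the line again several times afterwards. In Cycle 2 it never went below 50% again, so no width can be given. The highest libraries stood 1749-fold and 48.7-fold above the starved means. In Cycle 1 the fold was 1355 over the 0 h library alone and at least 822 over the -1 h library alone, whose 1 read was raised to 3. From the pooled reads these ratios were 1632 (95% exact binomial interval 637 to 5994) and 49 (39.7 to 61.1), and here the intervals do not overlap.

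**Figure D2:**
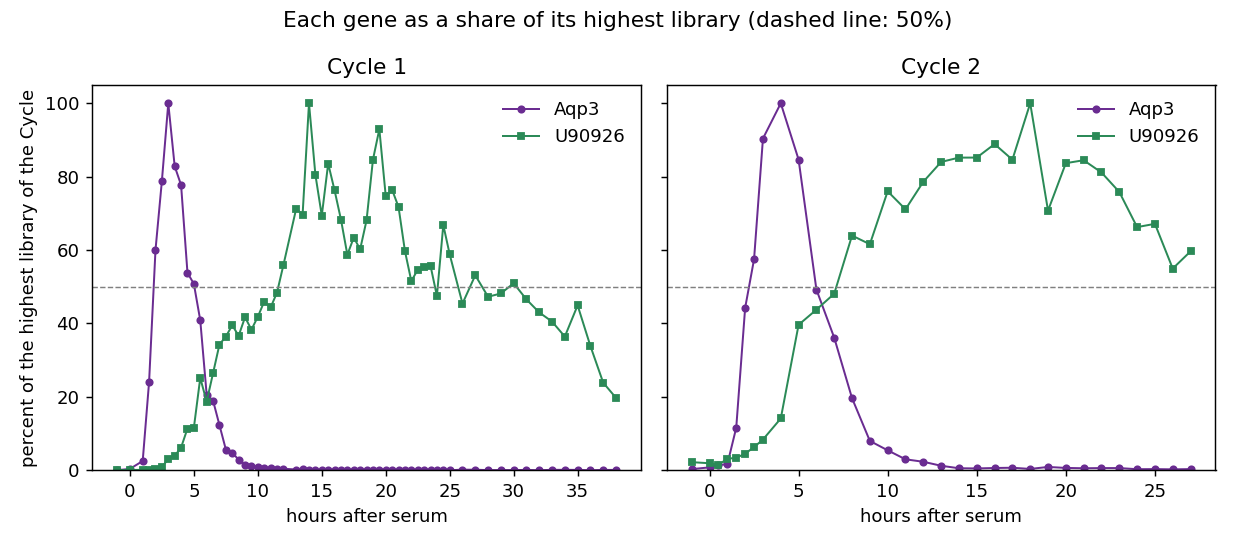
Signal of Aqp3 (circles) and U90926 (squares) in each library as a percent of the highest library of the same Cycle, against hours after serum, with the dashed line at 50%. Aqp3 spends 3.18 h and 3.76 h above the line and is near 0 afterwards, and U90926 ends at 19.7% in Cycle 1 and 59.7% in Cycle 2.

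Per kilobase of its longest transcript the highest signal was 1255 in Cycle 1 and 179 in Cycle 2 for Aqp3, and 7126 and 3830 for U90926. On this scale U90926 reached the higher level in both Cycles. The 2 genes did not move together: across the libraries of a Cycle, Pearson's r of log2(signal + 1) between them was -0.48 in Cycle 1 and -0.29 in Cycle 2, given as a description over 63 and 32 libraries that share a time axis.

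The late part of Cycle 1 was compared within the Cycle, because the ranking above used shared hours only, none of them after 27 h. U90926 declined at the end of the course. Its signal was 1752, 1785, 1888, 1725 and 1593 at 28 h to 32 h, and 1350, 1665, 1254, 884 and 731 at 34 h to 38 h. The groups overlap only through the 35 h library, which lies above the 32 h library. The difference on the log2 scale was -0.63 (SE 0.20, adjusted p = 0.0369 from limma). Of all genes 37.5% were called in this comparison, so a call there is common, and leaving out any of 8 of the 10 libraries (those of 28 h to 32 h, 36 h, 37 h or 38 h) put the adjusted p between 0.0536 and 0.0865. Aqp3 ranged from 0 to 1.88 in the earlier 5 libraries and from 0 to 2.49 in the later 5, a log2 difference of 0.42 (SE 0.38, adjusted p = 0.407 from limma) on 5 and 7 reads in all.

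The Cycles differed in both genes, in opposite directions from 1 h to 6 h and in the same direction from 7 h to 14 h. At every one of the 8 shared hours from 1 h to 6 h Aqp3 was higher in Cycle 1, by 14.6-fold at 1.5 h, 7.74-fold at 3 h, 5.44-fold at 4 h, then 2.93-fold at 6 h. From 7 h to 14 h it was still higher in Cycle 1 at all 8 hours, by 1.14-fold to 2.38-fold. From 15 h to 27 h it was higher in Cycle 2 at 10 of 13 hours, at signals of 0 to 3.52. These signals are at the limit of detection and do not tell the Cycles apart. The gap between the Cycles was thus largest at the start of the rise and closed as the signal fell.

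For U90926 the order was the other way round at the start. It was higher in Cycle 2 at all 8 hours from 1 h to 6 h, by 16.7-fold at 1 h, 5.57-fold at 2 h and 1.51-fold at 3 h. From 7 h on it was higher in Cycle 1 at all 8 hours to 14 h and at all 13 hours from 15 h to 27 h, by 1.02-fold at 10 h and 2.23-fold at 19 h. The plateau of Cycle 2 therefore lay lower although the starved level lay higher.

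A limma fit on log2(signal + 1) with the hour as a block gave the differences, coded as Cycle 2 minus Cycle 1. Averaged over all 29 hours, Aqp3 differed by -0.70 (SE 0.28, adjusted p = 0.0379) and U90926 by 0.08 (SE 0.22, adjusted p = 0.788). Of all genes 52.1% were called, 26.4% lower and 25.7% higher in Cycle 2, so a call there is common. That of Aqp3 was lost with a pseudocount of 0.5 (adjusted p = 0.13) and when any of 10 single hours was left out (highest adjusted p = 0.0677), with differences of -0.78 to -0.59 over the 29 hours left out in turn. The averages hide a difference that changed over the hours, with opposite signs for U90926. Allowing the difference to vary between 1 to 6 h, 7 to 14 h and 15 to 27 h gave an F of 48.9 for Aqp3 (adjusted p = 3.57e-08 from limma) and 26.9 for U90926 (adjusted p = 6.06e-06 from limma), against 34.5% of all genes called. For Aqp3 the last window lay at the limit of detection in both Cycles and could show no difference. An earlier difference alone would therefore raise its F.

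The fitted differences of Aqp3 were -2.82 (SE 0.26) at 1 to 6 h, -0.49 (SE 0.26) at 7 to 14 h and 0.47 (SE 0.21) at 15 to 27 h. The value at 15 to 27 h rests on signals at the limit of detection, so its sign is not read as a reversal. The fitted differences of U90926 were 1.64 (SE 0.25), -0.42 (SE 0.25) and -0.58 (SE 0.20). Both kept their call under each alternative run for this test, with adjusted p values from 1.86e-11 to 7.68e-07 for Aqp3 and from 5.39e-07 to 9.37e-06 for U90926 in limma.

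**Figure D3:**
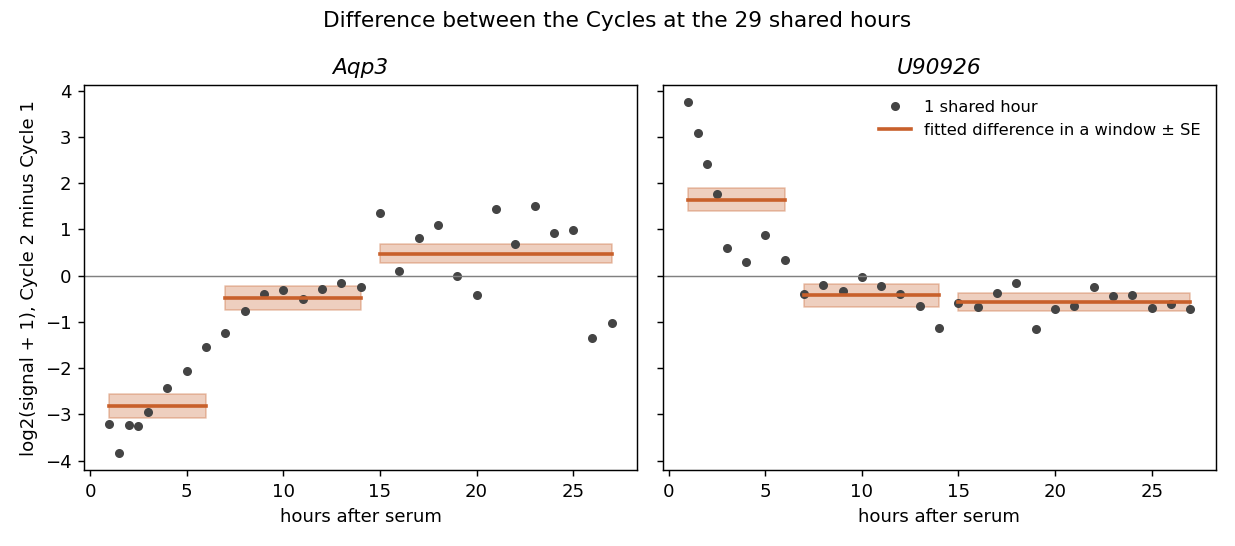
Difference of log2(signal + 1), Cycle 2 minus Cycle 1, at each of the 29 shared hours (points), with the fitted difference in each of 3 windows (lines) and its standard error (bands), for Aqp3 and U90926. Aqp3 goes from -2.82 in the first window to 0.47 in the last, where its signal is at the limit of detection, and U90926 from 1.64 to -0.58.

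In starved cells the Cycles were set apart by U90926 and not detectably by Aqp3. U90926 was higher in Cycle 2 by 3.77 on the log2 scale (SE 0.25, adjusted p = 0.0156 from limma over the 4 starved libraries), with both libraries of Cycle 2 above both of Cycle 1. Of all genes 19.4% were called in that comparison. With any of the 4 libraries left out limma called 0 genes, although 3956 to 5435 had an unadjusted p under 0.05, and U90926 then had a difference of 3.48 to 4.06 with adjusted p values from 0.0885 to 0.135. Aqp3 differed by -0.22 (SE 1.28, adjusted p = 0.921 from limma), and this value took either sign when a library was left out, from -1.82 to 1.38.

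Most markers of macrophages were, like U90926, higher in the starved cells of Cycle 2. Of 9 measured genes 8 had a higher starved mean in Cycle 2, and the lysozyme gene Lyz2, with 847 and 2881, the integrin gene Itgam, with 56.8 and 169, and the Fc receptor gene Fcgr3, with 31.8 and 103, passed the test (adjusted p = 0.0153, 0.0205 and 0.0288 from limma). Of all genes 19.4% were called in this comparison, in either direction, and the limits given for it above apply here. The share of all genes with a higher starved mean in Cycle 2 was not counted, so the 8 of 9 stands without a baseline. The remaining gene, Aif1, went the other way, with 7.54 in Cycle 1 and 1.37 in Cycle 2. After serum the summed macrophage signal stayed higher in Cycle 2 at every shared hour examined here (lowest 2263, against a highest of 1939 in Cycle 1). Most of this sum was Lyz2, with 1656 to 4066 in Cycle 2 without the 0.5 h library and 307 to 1359 in Cycle 1. The ranges of Lyz2, Itgam and Fcgr3 did not overlap between the Cycles. Those of Ptprc, Cd68, Emr1, Csf1r, Cd14 and Aif1 did. U90926, in contrast, crossed to the higher level in Cycle 1 from 7 h on. In the 0.5 h library of Cycle 2, where the summed macrophage signal was 811, U90926 was 29.5. The part of these cells in U90926 was not tested.

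**Figure D4:**
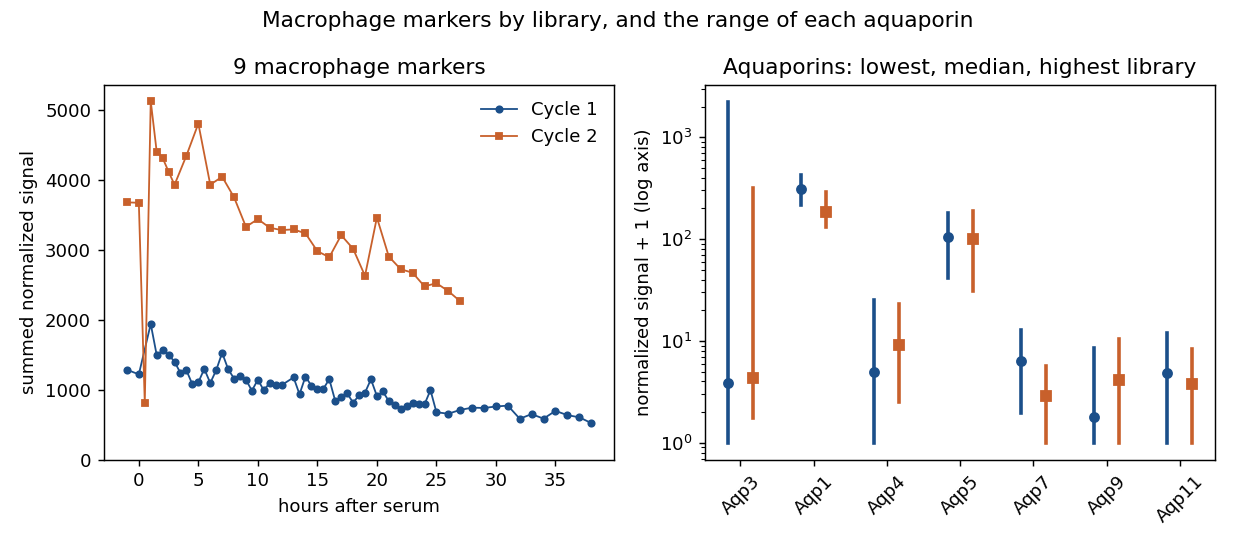
Left, summed signal of 9 macrophage markers in each library against hours after serum, with Cycle 2 (squares) above Cycle 1 (circles) except at 0.5 h, where it is 811. Right, lowest, median and highest signal + 1 (log axis) of Aqp3 and 6 other aquaporins over the libraries of Cycle 1 (left bar of each pair) and Cycle 2 (right bar), where Aqp3 spans from 0 to 2214 in Cycle 1.

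The other aquaporins showed no such rise. Of 11 listed, 6 are in the table, and none was called higher than starved cells in any window, where 5.62%, 6.76% and 6.55% of all genes were called higher at 1 to 6 h, 7 to 14 h and 15 to 27 h (adjusted p under 0.05 and a log2 difference above 1 in limma) and 14%, 16.4% and 17.9% lower. Aqp1, the water channel of red cells and endothelium, stayed between 130 and 429 in all libraries, with a difference of 0.26 (adjusted p = 0.358) at 1 to 6 h. Aqp5, the water channel of glands and airway, stayed between 30 and 189, and its difference of 0.78 at 15 to 27 h (adjusted p = 0.000337) was under the size limit. Aqp4, known from astrocytes, fell from starved means of 21.1 and 17.6 by 1.32 at 7 to 14 h (adjusted p = 0.0014) and by 2.12 at 15 to 27 h (adjusted p = 4.32e-07). The aquaglyceroporin Aqp9 never passed 9.37 and fell by 1.72 at 15 to 27 h (adjusted p = 0.000845). Aqp7, another aquaglyceroporin and the nearest of the table's genes on the lower-coordinate side of Aqp3, lies 44.6 kb away and never passed 11.9.

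Genes around the substrates of Aqp3 were counted in the same fit, where 5.62% of all genes were called higher and 14% lower at 1 to 6 h. In the later windows 6.76% and 6.55% of all genes were called higher and 16.4% and 17.9% lower. Of 12 measured enzymes of glycerol and triglyceride metabolism, 1 rose and 2 fell at 1 to 6 h, 2 rose and 1 fell at 7 to 14 h and 1 of each at 15 to 27 h, with a list median of -0.41 at 1 to 6 h beside -0.27 over all genes. Gpam, which starts triglyceride synthesis, fell by 1.29 (adjusted p = 2.08e-05) at 1 to 6 h, and Gpd1l, a glycerol-3-phosphate dehydrogenase-like protein, by 1.20 (adjusted p = 1.79e-09). Mgll, which frees glycerol from monoglycerides, rose by 1.57 at 7 to 14 h (adjusted p = 3.9e-08), and the phosphatidate phosphatase Lpin1 fell by 1.95 at 15 to 27 h (adjusted p = 6.84e-07). The remaining called gene, named after its values were seen, was the mitochondrial glycerol-3-phosphate dehydrogenase Gpd2, higher by 1.02 at 1 to 6 h and by 1.18 at 7 to 14 h. Of 18 measured sources and scavengers of peroxide, 0 rose and 1 fell at 1 to 6 h, and 1 rose and 2 fell in each later window. The peroxide-forming oxidase Nox4 fell by 1.46 at 15 to 27 h (adjusted p = 3.29e-06), the oxidase organizer Noxo1 by 1.18 at 7 to 14 h (adjusted p = 0.0024), and the peroxiredoxin Prdx6 rose by 1.15 at 15 to 27 h (adjusted p = 4.7e-09).

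Of 22 genes of cell volume and osmotic response, 4 rose and 0 fell at 1 to 6 h, 3 rose and 0 fell at 7 to 14 h, and 3 rose and 1 fell at 15 to 27 h, where the shares of all genes called higher were 5.62%, 6.76% and 6.55% and those called lower 14%, 16.4% and 17.9%. Without Cycle 1, 1 gene in place of 4 rose at 1 to 6 h. The kinase Sgk1 rose by 1.83 at 1 to 6 h (adjusted p = 7.21e-10 from limma), in the hours of the Aqp3 peak. The volume-regulated channel subunit Lrrc8d rose by 1.96 (adjusted p = 1.15e-14) and the betaine transporter Slc6a12 by 2.02 (adjusted p = 0.000508) at 7 to 14 h. The taurine transporter Slc6a6 rose by 1.52 at 15 to 27 h (adjusted p = 1.2e-13). Named after their values were seen, the other called genes were Lrrc8c, higher by 1.27 at 1 to 6 h, and the chloride transporter Clcn3, lower by 1.26 at 15 to 27 h. The medians of this list were -0.02, 0.42 and 0.38 in the 3 windows, beside -0.27, -0.15 and -0.15 over all genes.

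For the fields in which U90926 has been described, the counts stand beside the same shares of all genes. Of 18 adipogenesis genes, 1 rose and 2 fell at 1 to 6 h, 2 rose and 3 fell at 7 to 14 h, and 3 rose and 4 fell at 15 to 27 h, while U90926 was high. The glucocorticoid-responsive factor Klf15 fell by 2.80 at 1 to 6 h (adjusted p = 3.02e-09), the preadipocyte factor Zfp423 by 2.67 at 7 to 14 h (adjusted p = 8.02e-07) and lipoprotein lipase Lpl by 2.47 at 15 to 27 h (adjusted p = 1.65e-14). Gata3, an inhibitor of adipocyte differentiation, rose by 1.83 at 15 to 27 h (adjusted p = 9.17e-10). Of the C/EBP factors and Pparg, named after their values were seen, Cebpb was higher by 1.32 at 1 to 6 h and Pparg by 1.17 at 15 to 27 h. Cebpd differed by -0.83, -0.99 and -0.93 in the 3 windows (adjusted p = 7.9e-05, 3.59e-06 and 4.11e-06 from limma) and Cebpa by -0.68 at 15 to 27 h (adjusted p = 0.000434 from limma), all under the size limit of 1. Of 20 inflammatory response genes, 8 rose and 0 fell at 1 to 6 h, and 3 rose with 7 falling at 7 to 14 h and 11 falling at 15 to 27 h. The interleukin Il11 rose by 6.12 at 7 to 14 h (adjusted p = 7.33e-13), and Il1a by 4.71 (adjusted p = 4.18e-09) and the granulocyte factor Csf3 by 4.02 (adjusted p = 6.45e-08) at 1 to 6 h, while the chemokine Cxcl10 fell by 4.57 at 15 to 27 h (adjusted p = 8.96e-10). With the Cycle as a replicate block 9 rose at 1 to 6 h, 5 rose and 8 fell at 7 to 14 h, and 13 fell at 15 to 27 h, and without Cycle 1 the genes that fell numbered 3 and 7 in the later windows. These inflammatory counts depend on the 0 h libraries: without them 11 rose at 1 to 6 h, 5 rose and 3 fell at 7 to 14 h, and 3 rose and 4 fell at 15 to 27 h, and the list medians went from 0.85, -0.41 and -1.36 to 2.08, 0.30 and -0.22.

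Rescaling by TMM raised the median of all genes by 0.20 at 1 to 6 h and changed the split of calls there from 894 higher and 2229 lower to 1216 and 1414. Under it the list counts above moved by at most 3 genes, the inflammatory genes lower at 7 to 14 h becoming 4 instead of 7.

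The marker lists of other cell types gave the following counts in the same fit. Of all genes 5.62%, 6.76% and 6.55% were called higher in the 3 windows, and 14%, 16.4% and 17.9% lower. Beside these shares, single calls in lists this short say little about a cell type. Of 10 epithelial and keratinocyte markers, 2 rose and 1 fell at 1 to 6 h, 1 rose and 2 fell at 7 to 14 h, and 1 rose and 4 fell at 15 to 27 h, or 3 and 6 falling in the later windows with the Cycle as a replicate block. The epidermal stem cell factor Trp63 fell by 2.78 (adjusted p = 4.71e-07) and E-cadherin Cdh1 by 2.29 (adjusted p = 4.75e-06) at 15 to 27 h, and keratin Krt19 rose by 1.72 (adjusted p = 1.6e-05). In Cycle 1 the summed epithelial signal was 500 to 1185 from 1 h to 6 h and in Cycle 2 it was 213 to 467 over the libraries up to 6 h, so these markers, like Aqp3, were higher in Cycle 1. Their part in the difference of Aqp3 was not tested. Of 9 macrophage markers 1 rose, Csf1r by 1.24 at 7 to 14 h (adjusted p = 0.000283), and 0 fell in any window. Of 6 endothelial markers 0 rose and 1, 3 and 4 fell in the 3 windows, of 5 adipocyte markers 0 rose and 1, 1 and 2 fell, and of 12 fibroblast markers 1 rose in each window (Vim in the first and S100a4 in the later ones) and 0, 6 and 6 fell, among them collagen Col3a1 by 2.99 at 15 to 27 h (adjusted p = 1.29e-17).

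The genes whose course was most like that of Aqp3 were sought among 11412 others with a signal of at least 50 somewhere in each Cycle, by the lower of the Pearson correlations of the 2 Cycles. They were Pttg1ip (0.96 in Cycle 1 and 0.97 in Cycle 2), Aig1 (0.95 and 0.95), Ndel1 (0.95 and 0.96), the growth factor receptor Fgfr1 (0.95 and 0.96) and Stc1 (0.94 and 0.97), a secreted glycoprotein hormone. All 5 were already expressed in starved cells and rose far less. Fgfr1 went from 3768 to 14748 at 3 h in Cycle 1 and from 3435 to 10180 at 4 h in Cycle 2, the hours at which Aqp3 was highest. Stc1 went from 234 to 2193 at 3.5 h and from 175 to 2139 at 3 h. Unlike Aqp3, Stc1 reached similar heights in the 2 Cycles.

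The genes most like U90926 were Lce1g (0.97 and 0.99), Cck (0.97 and 0.98), Sbsn (0.96 and 0.99), Ppbp (0.96 and 0.97) and Klk8 (0.97 and 0.95). Lce1g, a late cornified envelope gene of the epidermis, was at 0 in the starved libraries of Cycle 1 and highest at 14 h with 386, and in Cycle 2 it went from 2.73 to 272 at 18 h, so its highest libraries were those of U90926. The suprabasal epidermal gene Sbsn rose from 60.4 to 975 at 24.5 h in Cycle 1 and from 78.5 to 606 at 18 h in Cycle 2. Cck, which encodes the peptide hormone cholecystokinin, was 2.87 in the starved cells of Cycle 1 and 27.3 in those of Cycle 2, and thus stood higher in Cycle 2 before serum as U90926 did. Ppbp, a platelet chemokine, and the epidermal protease Klk8 reached 281 and 442 in Cycle 1. These lists depend on the measure: with Spearman's rho 0 of the 5 genes named for Aqp3 and 1 of the 5 for U90926 remained among the 5 highest.

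Most genes beside Aqp3 and U90926 on their chromosomes stayed under the size limit of 1 in every window, though some changed. Nol6, a nucleolar protein gene 16.2 kb from Aqp3, was highest at the same hours, with 1394 at 3 h in Cycle 1 and 826 at 4 h in Cycle 2, from starved means of 455 and 425, and its difference of 0.71 at 1 to 6 h (adjusted p = 0.00125 from limma) did not pass the size limit of 1. Ube2r2, Ubap2, Nfx1 and Chmp5 were called in no window. Smaller differences were present: Ubap2 was higher by 0.49 at 15 to 27 h (adjusted p = 1.65e-06 from limma). Chmp5 was lower by 0.46 (adjusted p = 6.58e-06 from limma) and Nfx1 by 0.41 (adjusted p = 0.00136 from limma) at 1 to 6 h. Around U90926, Uso1 at 7.1 kb, G3bp2, Naaa and Sdad1 were called in no window. Under the size limit, Sdad1 was higher by 0.90 at 1 to 6 h (adjusted p = 7.88e-09 from limma) and Uso1 by 0.56 at 7 to 14 h (adjusted p = 0.000231 from limma). G3bp2 was lower by 0.47 at 1 to 6 h (adjusted p = 0.000488 from limma). Ppef2, 11.6 kb away, rose by 1.13 at 7 to 14 h (adjusted p = 0.0248 from limma) at signals of at most 8.59, and Cdkl2 fell by 1.04 at 15 to 27 h (adjusted p = 1.3e-05 from limma). Beside these calls, 6.76% of all genes were called higher at 7 to 14 h and 17.9% lower at 15 to 27 h.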

How the data were processed

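Total RNA was made into stranded poly(A) libraries and sequenced as single-end reads of 50 bases. The authors aligned the reads to mm9 with STAR, counted those on exons of both strands with HOMER and deposited a normalized signal, reads scaled to 10000000 per library. Versions and read filters are not given in the sources used here. Of 96 columns 95 were matched to libraries by name, and 1 was not used, so the 12.5 h library of Cycle 1 was not analysed here. Of the 15895 genes, 3291 hold averages over transcripts, and neither Aqp3 nor U90926 is among them. Between 94.2% and 96.2% of low values per library were whole multiples of the value of 1 read, which gave depths of 5067431 to 14500276 reads. PCR duplicates cannot be counted, so intervals and floors (3 reads) cover counting error only.

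The members and lists were chosen with earlier results of these data known. Genes named are both members, the 5 genes most like each, 3 neighbours on each side, the aquaporins and up to 4 called genes per list, plus a few named after their values were seen, as the text says there. Values were tested as log2(signal + 1) in limma 3.58.1 (R 4.3.3) with Benjamini-Hochberg adjustment over all genes, so fold changes of low genes are understated. The Cycles were compared over 29 shared hours with the hour as a block. Deviations from the window mean of each Cycle correlated between the Cycles over 9058 genes. The correlation was over 0.1 at 22 of 29 hours (median 0.564, lowest -0.47). A course shared by the Cycles within a window is part of this correlation. Whole reads were also tested in edgeR 4.0.16, without the pair of libraries at 18 h. Values were read with pandas 2.3.3 and numpy 2.4.6 under Python 3.11.15, exact intervals came from scipy 1.17.1 and plots from matplotlib 3.10.9. The fits were tested on simulated data. Alternatives covered the reference, pseudocount, filter, scaling, blocks, time offsets and libraries left out.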

Additional observations from a re-analysis of the deposited data

Results flagged for a closer look

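The difference between the Cycles varied over the hours after serum for both genes, with an F of 48.9 for Aqp3 and 26.9 for U90926 in the test of the difference itself. For Aqp3 the last window of that test lay at the limit of detection and could show no difference. In 12 groups of libraries examined for a library far from the others, 2 stood apart, both for Aqp3. The rule's chance rate of about 1 in 20 assumes independent draws from 1 distribution. It does not apply to a falling course or to counts of a few reads. The 7 h library of Cycle 1, with 272, lay above the other 7 shared hours to 14 h of that Cycle, which is the steep part of the fall. The 36 h library of Cycle 1 had 0, against 1.88 to 2.49 in the other 4 libraries from 34 h to 38 h, values of 1 to 3 reads.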

How the results depend on the processing

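Of 333 alternatives over 43 results, 256 kept their direction and call or stayed within the tolerance of the value. Part of these could not change. The peak hour and the width do not use the starved reference or the onset fold, and the onset does not use the percent that marks the width. The count is therefore no measure of how firm the results are. Averaged over the hours, the difference of Aqp3 lost its call with a pseudocount of 0.5 (-0.58), without the hour block (-0.70, adjusted p = 0.59), and with Cycle 2 taken 1 h later (-0.53) or 1 h earlier (-0.32). Its call was kept with -2.06 in edgeR, run without the 18 h pair (adjusted p = 1.18e-08), and with -1.65 without the hours after 14 h (adjusted p = 0.000441 in limma). It turned to 0.21 relative to the starved mean of its own Cycle and to 0.10 without the hours up to 6 h, an alternative chosen after seeing the data. That of U90926 turned to -3.67 relative to its own starved mean, to -0.41 with Cycle 2 taken 1 h earlier, to -0.16 in edgeR and to -0.52 without the hours up to 6 h. The genes called there numbered 4627 without the hour block, 12476 relative to the starved means and 8519 in edgeR, beside 8275. Causes were not tested.

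In starved cells, leaving out 1 library gave 0 genes called instead of 3079, -1.82 to 1.38 for Aqp3 and 3.48 to 4.06 for U90926, with 1 residual degree of freedom fewer. Leaving out 1 of the late libraries gave -0.77 to -0.47 for U90926. Against starved cells, genes lower at 1 to 6 h numbered 1414 with TMM, beside 2229, and those lower at 7 to 14 h and 15 to 27 h numbered 1684 and 1770 with a mean value of at least 10, beside 2601 and 2852. Leaving out a Cycle gave 668 to 1077 higher and 1139 to 2934 lower at 1 to 6 h, 704 to 1546 and 1525 to 3367 at 7 to 14 h, and 568 to 1737 and 1739 to 3613 at 15 to 27 h. With the Cycle as a replicate block the counts were 920 higher and 2250 lower at 1 to 6 h, 1104 and 2654 at 7 to 14 h, and 1048 and 2885 at 15 to 27 h, none moved over 1.5 times. Of the list counts in the report the block changed those of the inflammatory and epithelial genes, given there. Leaving out a Cycle moved many list counts of 1 to 4 genes.

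At 25% of the highest value the width of Aqp3 was 4.38 h and 5.97 h and that of U90926 in Cycle 1 was 30.5 h. With a running median the widths were 3.73 h, 4.27 h and 22.2 h, and the highest library moved to 3 h for Aqp3 in Cycle 2 and to 19 h and 17 h for U90926. The onset of Aqp3 in Cycle 2 was 1.5 h with 4-fold, with 8-fold and with the -1 h library alone, whose 1 read was raised to 3. That of U90926 was 2.5 h in Cycle 1 with 8-fold, and 3 h and 5 h in Cycle 2 with 4-fold and 8-fold. Of the 5 genes most like Aqp3, 2 remained with a pseudocount of 5 and 0 with Spearman's rho, and of those most like U90926, 1 remained with rho. Depth limits what can be said of Aqp3 in starved cells and after 14 h, where no library holds more than 9 reads.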
